A study of Mus musculus with 2 samples.

Results

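The miR-34/miR-449 family is a group of microRNAs (miRNAs, short RNAs that lower the output of messenger RNAs they pair with) that carry a common seed, the stretch of bases at the 5′ end of the mature strand that finds the target. Its members here are the mouse genes Mir34a, Mir34b, Mir34c, Mir449a, Mir449b and Mir449c, taken by gene symbol in the GENCODE M21 annotation, which gave 6 of the 2202 miRNA genes counted. The family was chosen by symbol but with its read counts on the gene's strand in these same libraries already known, so its levels and the differences between the libraries are described, with no test. The libraries were made from total RNA of cortex tissue, taken from the left cerebral hemisphere of B6CASTF1/J males (a hybrid of the B6 and CAST strains) at an age of 10 days. The labels give 1 group of 2 biological replicates and no other age, sex, tissue or treatment, so there was no comparison of conditions.

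The transcription factor p53 induces Mir34a and the Mir34b/Mir34c locus, and miR-34 strands restrain genes of the cell cycle. The Mir449 genes lie within Cdc20b and are switched on with it in cells that grow many motile cilia, and mice that lack both the Mir34b/Mir34c locus and the Mir449 genes have defects of motile cilia. In brain, multiciliated cells line the ventricles (ependyma) and cover the choroid plexus, while Mir34a is also known from neurons. Protein-coding markers of ciliated cells were not measured here, so the link of the family to that cell type could not be checked in these libraries.

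For the 4 members with a 5p strand printed here, the mature strands show why the genes are treated as 1 family. The RefSeq miRNA table (build GRCm38.p6) matched 5 of the 6 members and held 9 of their mature strands. Mir449b and the 5p strand of miR-34c are not printed. In the 5p strands below, bases 2 to 8, the seed, are in capitals.
mmu-miR-34a-5p: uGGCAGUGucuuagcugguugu
mmu-miR-34b-5p: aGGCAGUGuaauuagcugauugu
mmu-miR-449a-5p: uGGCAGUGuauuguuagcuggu
mmu-miR-449c-5p: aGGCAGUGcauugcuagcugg
All 4 printed strands carry the seed GGCAGUG, and no gene outside the family has a mature strand with that seed among the 1738 mature strands of the table. Beyond the seed they differ. Counted from base 1 without gaps, miR-449a-5p matched miR-449c-5p at 18 of 21 bases and miR-34a-5p at 15 of 22 bases, whereas it matched miR-34b-5p at 10 of 22 bases.

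The 3p strands, which come from the other side of each hairpin, do not share 1 seed. They are printed with bases 2 to 8 in capitals, because each count below sums both strands of a hairpin.
mmu-miR-34a-3p: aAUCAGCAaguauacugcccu
mmu-miR-34b-3p: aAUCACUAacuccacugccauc
mmu-miR-34c-3p: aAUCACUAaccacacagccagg
mmu-miR-449a-3p: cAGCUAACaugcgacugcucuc
mmu-miR-449c-3p: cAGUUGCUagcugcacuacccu
The strands miR-34b-3p and miR-34c-3p share the seed AUCACUA and are identical at 17 of 22 bases. The other 3 printed 3p strands each have a seed found in no other gene of the table.

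The genes lie at 3 loci (mm10). Mir34a is on chromosome 4, plus strand, chr4:150068454-150068555, and the last 17 bases of its hairpin overlap an exon of Gm37795, an unclassified transcript of the same strand. Mir34c (chr9:51103034-51103110) and Mir34b (chr9:51103562-51103645) are on the minus strand of chromosome 9 with 451 bases between them, inside an intron of Btg4, which runs on the opposite strand. Mir449c (chr13:113035983-113036091), Mir449b (chr13:113037419-113037498) and Mir449a (chr13:113037534-113037624) are on the plus strand of chromosome 13 in an intron of Cdc20b, with 1327 bases between Mir449c and Mir449b and 35 between Mir449b and Mir449a.

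Among the members, Mir34a and Mir449a were the detected pair closest in level in each library, and they come from different chromosomes. Their hairpins are shown with the mature strands in capitals.
Mir34a: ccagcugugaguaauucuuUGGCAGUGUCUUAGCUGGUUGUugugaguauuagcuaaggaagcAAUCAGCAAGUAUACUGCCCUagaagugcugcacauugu
Mir449a: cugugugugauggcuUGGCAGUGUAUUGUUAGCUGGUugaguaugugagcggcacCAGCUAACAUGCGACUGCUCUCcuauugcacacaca
Their longest stretch in common is 11 bases. None of the 5 hairpins in the table shares 20 bases with any of the 1004 others, and no mature strand of a member occurs whole in a second hairpin. The table does not hold all counted genes, so copies elsewhere were not looked for. The Mir449a hairpin had the lowest predicted folding energy per base of the 5, lower than 81.4% of the 997 distinct hairpins in the table, and the other 4 were lower than 39.6% to 54.3% of them.

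The counts rest on 1750076 gene-strand reads in replicate 2 and 2677910 in replicate 1. Of all reads, those with several places in the genome, which no gene's count includes, made up 28.3% in replicate 2 against 38.2% in replicate 1, and unmapped reads 42.4% in replicate 2 against 25.5% in replicate 1. Levels are given as CPM, the gene-strand reads of a hairpin scaled to the same total in each library. CPM are not divided by length, since each insert is below 30 bases, about the size of a mature strand. A count of 3 reads, the limit that a count of 0 allows, equals 1.71 CPM in replicate 2 and 1.12 CPM in replicate 1. A gene counts as detected where each library has at least 2 CPM of it, which held for 442 of the 2202 genes.

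The family as a whole was a small part of the reads assigned to miRNA genes, which leave out reads with several places in the genome. Of its 6 hairpins 3 were detected, Mir34a, Mir34c and Mir449a. The 6 genes held 3716 reads in replicate 2, or 0.212% of assigned reads (95% exact Clopper-Pearson interval 0.206% to 0.219%). In replicate 1 they held 1763 reads, or 0.0658% (0.0628% to 0.0690%). The mean was 0.139% ± 0.104 (SD, n = 2), and the share in replicate 2 was 3.23 times that in replicate 1. These intervals hold counting error alone. They take reads as independent, which PCR copies of a molecule are not, so they can be too narrow even for that. The spread between the libraries was far wider than these intervals.

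Mir34a, which p53 induces and which is also known from neurons, had the smallest relative difference between the libraries of the detected members. It had 930 reads (531 CPM) in replicate 2 and 840 reads (314 CPM) in replicate 1, a mean of 423 ± 154 CPM (SD, n = 2). By CPM it stood at position 144 of 2202 in replicate 2 and 163 in replicate 1. The higher value was in replicate 2, with a log2 ratio of CPM, replicate 2 over replicate 1, of 0.76 (95% counting interval 0.62 to 0.90).

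Mir449a carried nearly all reads of the locus in Cdc20b. It had 1012 reads (578 CPM) in replicate 2 and 667 reads (249 CPM) in replicate 1, a mean of 414 ± 233 CPM (SD, n = 2), and a log2 ratio of 1.21 (1.07 to 1.36). Its level in replicate 2 was thus 2.32 times that in replicate 1.

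The neighbours of Mir449a in the same intron were at the limit of what this depth shows. Mir449c had 6 reads (3.43 CPM) in replicate 2 and 0 in replicate 1, which is at least 3.06-fold higher in replicate 2 when 3 reads are taken for the 0 and the 6 reads as they stand. With the error of both counts, the lower limit of its log2 ratio was 0.85. Mir449b had 0 reads in replicate 2 and 3 reads (1.12 CPM) in replicate 1, so no fold is given. Each of them was thus seen in 1 library and not in the other. In replicate 2, Mir449a stood 169-fold above Mir449c (counting interval 77.2 to 461) and at least 337-fold above Mir449b with 3 reads taken for the 0 (lower counting limit 274). In replicate 1 it stood at least 222-fold above Mir449c by the same reckoning (lower counting limit 180.3) and 222-fold above Mir449b (75.8 to 1081). Mir449a was therefore the leading hairpin of its locus in both libraries.

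Of the detected members, Mir34c differed most between the libraries. It had 1738 reads (993 CPM) in replicate 2 and 250 reads (93.4 CPM) in replicate 1. The mean of 543 CPM has an SD of 636 CPM (n = 2), so it describes neither library. The log2 ratio was 3.41 (counting interval 3.22 to 3.61), a 10.6-fold difference. Mir34c stood at position 109 in replicate 2 and 220 in replicate 1.

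Mir34b, the neighbour of Mir34c, differed in the same direction at a much lower level. It had 30 reads (17.1 CPM) in replicate 2 and 3 reads (1.12 CPM) in replicate 1, which left it below the level for detection in replicate 1. Its log2 ratio was 3.74, with a wide counting interval of 2.25 to 6.29 that includes the value of Mir34c. Mir34c stood 57.9-fold above Mir34b in replicate 2 (40.4 to 86.1) and 83.3-fold above it in replicate 1 (28.2 to 407). The 2 intervals overlap, so a different ratio of the hairpins in the 2 libraries was not detectable at this depth. Mir34b was also the only member with reads on the opposite strand, 1 in replicate 2 and 3 in replicate 1, and these are left out of its count. In the unstranded column, which includes them, it had 31 reads in replicate 2 and 6 in replicate 1, and its log2 ratio was 2.88. Mir34c kept its count there, 1738 in replicate 2 and 250 in replicate 1. The fold of Mir34c over Mir34b was then lower in replicate 1 than in replicate 2. Which library had the higher fold thus depended on the column.

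**Figure D1:**
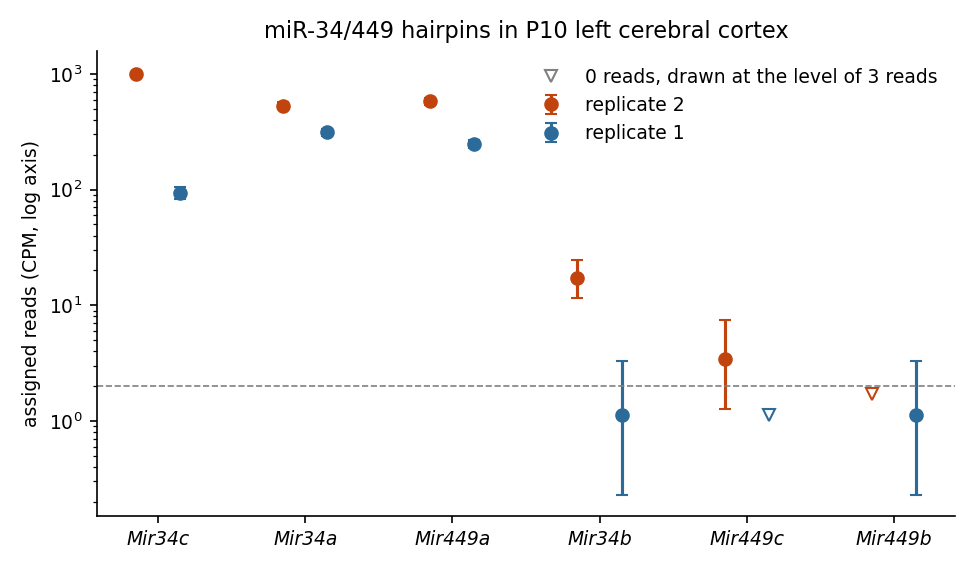
Level of each hairpin in CPM on a log axis, with replicate 2 to the left of replicate 1 for each gene. Bars are 95% exact Poisson counting intervals, open triangles mark 0 reads and are drawn at the level of 3 reads, and the dashed line is the 2 CPM level. Mir34c, Mir34a and Mir449a lie between 93.4 and 993 CPM, and Mir34b, Mir449c and Mir449b at 17.1 CPM or below.

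The order of the levels was not the same in the 2 libraries. In replicate 2 Mir34c came first, followed by Mir449a and Mir34a. In replicate 1 the order was Mir34a, Mir449a and Mir34c. The ranges of these 3 genes over the libraries overlap, so none of them stood apart from the others beyond the spread. Mir34c was 1.87 times as high as Mir34a in replicate 2 (counting interval 1.72 to 2.03) and 0.298 times as high in replicate 1 (0.257 to 0.343). Mir449a and Mir34a stayed closer, at a ratio of 1.09 in replicate 2 (0.994 to 1.19) and 0.794 in replicate 1 (0.716 to 0.880). All 3 lay above Mir34b, Mir449c and Mir449b in both libraries, while the ranges of these last 3 overlap one another.

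The make-up of the family's reads shifted accordingly. Mir34c held 46.8% of them in replicate 2 (exact Clopper-Pearson interval 45.2% to 48.4%) and 14.2% in replicate 1 (12.6% to 15.9%). Mir34a held 25.0% in replicate 2 and 47.6% in replicate 1, and Mir449a held 27.2% in replicate 2 and 37.8% in replicate 1. Mir34b, Mir449b and Mir449c together stayed under 1% in each library. Without Mir34c the other members held 0.113% of the assigned reads of replicate 2 and 0.0565% of those of replicate 1, a 2.00-fold difference.

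**Figure D2:**
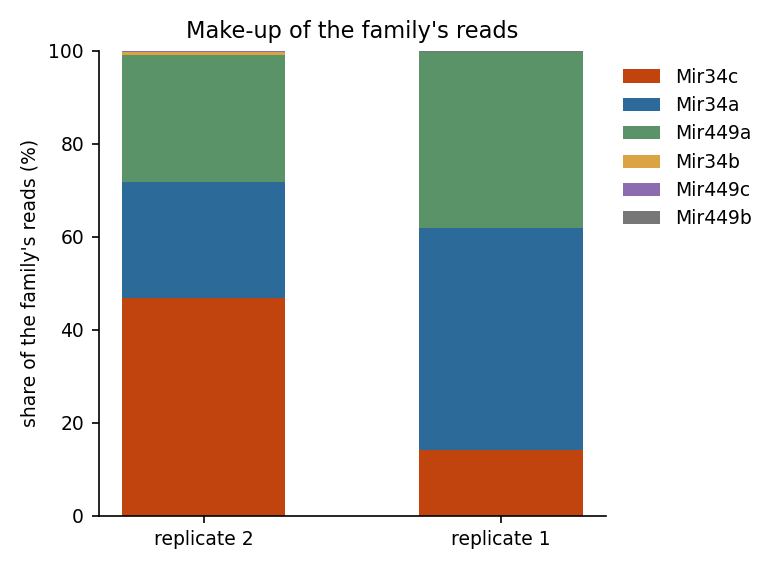
Share of the family's reads, in percent, that each hairpin held in replicate 2 (left bar, 3716 reads) and replicate 1 (right bar, 1763 reads). Mir34c takes 46.8% of the left bar and 14.2% of the right bar.

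Set against all genes, the detected members all lay on 1 side of the difference between the libraries. Of the 442 genes detected in both libraries, 7.01% were past 2-fold higher in replicate 2 and 7.24% past 2-fold lower, and their median log2 ratio was -0.07 with quartiles of -0.37 and 0.32. The family had 2 of its 3 detected genes past 2-fold higher, Mir34c and Mir449a, none lower, and a median of 1.21. By log2 ratio Mir34c was at position 2 of the 442 genes from the highest, Mir449a at 24 and Mir34a at 46. When genes at 2 CPM or more in either library were taken, 12.0% of 542 were past 2-fold higher and 13.3% past 2-fold lower. Of the family, 5 entered and 4 were past 2-fold higher, but Mir34b and Mir449c entered through replicate 2 alone, so they had to be higher there. The members were chosen with these values known, and the 3 loci are not replicates of a condition, so nothing is read from these counts.

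**Figure D3:**
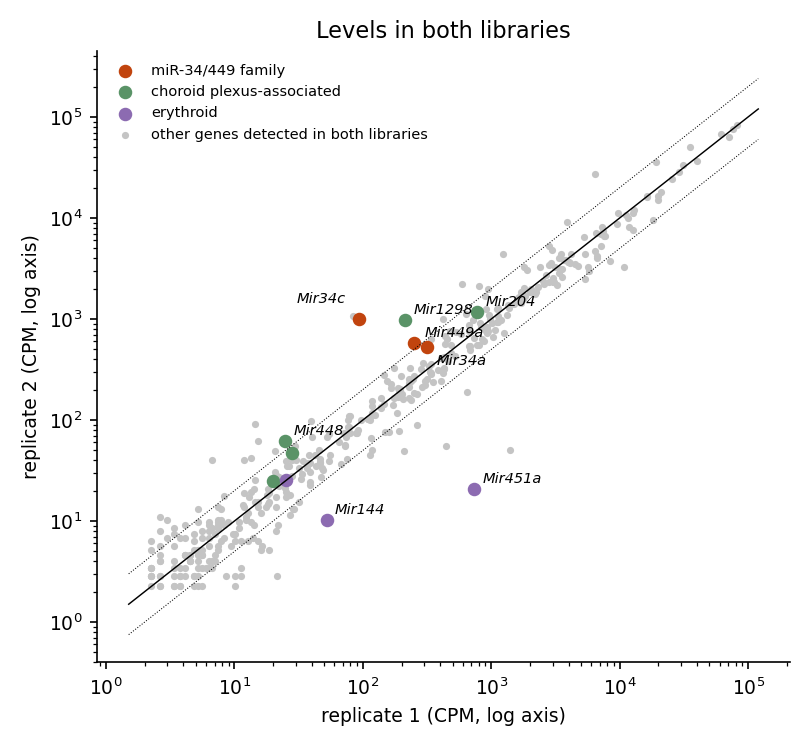
CPM of each gene detected in both libraries, replicate 2 on the vertical and replicate 1 on the horizontal axis, both on log axes. The solid line marks equal levels and the dotted lines 2-fold. Mir34c and Mir449a lie above the upper dotted line and Mir34a between the solid and the upper dotted line, while the erythroid Mir451a and Mir144 lie below the lower dotted line.

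The genes closest to each detected member in level over both libraries came from several chromosomes. Closeness was the distance in log2(CPM + 1) over the 2 libraries, among 439 other detected genes. Closest to Mir34c was Mir31, at a distance of 0.20, with 1078 CPM in replicate 2 and 83.6 CPM in replicate 1. It was followed by Mir1298, in the serotonin receptor gene Htr2c, at 1.18 and Mir135b at 1.84. Closest to Mir34a were Mir219a-2, known from oligodendrocytes, at 0.29, Mir101b at 0.49 and Mirlet7a-1 at 0.53. Closest to Mir449a were Mir219a-2 at 0.46, Mir1188 at 0.68 and Mir1298 at 0.78. With 2 libraries such closeness describes levels only.

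Of genes known from the choroid plexus, a tissue with multiciliated epithelium, all 5 that were detected had the higher CPM in replicate 2. For Mir764 the difference was within counting error. The list has 8 genes, of which 7 were among those counted. Of the 5 detected genes, 2 were past 2-fold higher in replicate 2 and none lower, with a median log2 ratio of 0.74. Over all 442 detected genes, 7.01% were past 2-fold higher and 7.24% past 2-fold lower, and the median log2 ratio was -0.07. The lists were chosen with earlier results of these data known, so nothing is read from these counts. The summed level of the 7 genes was 2288 CPM in replicate 2 and 1062 CPM in replicate 1. Mir204, in the ion channel gene Trpm3, led the list with 1176 CPM in replicate 2 and 775 CPM in replicate 1. Its log2 ratio was 0.60 (counting interval 0.51 to 0.69).

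The genes within Htr2c, which is strongly expressed in choroid plexus epithelium, spanned a wider range of differences. Mir1298 had 973 CPM in replicate 2 and 213 CPM in replicate 1, a log2 ratio of 2.19 (2.05 to 2.33). Mir448 had 61.7 CPM in replicate 2 and 24.6 CPM in replicate 1, and Mir1264 had 46.9 CPM in replicate 2 and 28.0 CPM in replicate 1. For Mir764 the values were closer, at 25.1 CPM in replicate 2 and 19.8 CPM in replicate 1, and the counting interval of its log2 ratio, -0.27 to 0.95, includes no difference. Mir1912 had 8 reads in replicate 2 and 0 in replicate 1, at least 4.08-fold higher in replicate 2 with 3 reads taken for the 0, and the lower counting limit of its log2 ratio was 1.39. Mir211, the relative of Mir204 in Trpm1, had 2 reads in replicate 2 and 3 in replicate 1, and Mir1911 was not analysed here. The part of choroid plexus or ependyma in the levels of the family was not tested. In bulk tissue, fewer cells of a type and less RNA per cell cannot be told apart.

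Of 8 epithelial genes (the miR-200 and miR-183 clusters) 7 were detected, with a median log2 ratio of 0.08. None was past 2-fold higher and 1, Mir200b, was past 2-fold lower, against 7.01% and 7.24% of all 442 detected genes. All 8 summed to 103 CPM in replicate 2 and 112 CPM in replicate 1. Mir429 had 33.1 CPM in replicate 2 and 31.7 CPM in replicate 1, and Mir200c had 30.3 CPM in replicate 2 and 20.5 CPM in replicate 1. Mir200b had 13.1 CPM in replicate 2 and 29.1 CPM in replicate 1, and Mir183 had 13.7 CPM in replicate 2 and 11.9 CPM in replicate 1. The epithelial genes thus lay on both sides of equal levels.

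Genes that respond to p53 other than miR-34 differed between the libraries in both directions. Of 9 such genes 7 were detected, with a median log2 ratio of 0.08. In replicate 2, 2 were past 2-fold higher and 1 past 2-fold lower, against 7.01% and 7.24% of all 442 detected genes. The epithelial list has the same median, so the 2 lists may share genes and should not be taken as separate observations. Mir107 had 4404 CPM in replicate 2 and 1242 CPM in replicate 1, whereas Mir16-1 had 191 CPM in replicate 2 and 643 CPM in replicate 1. Mir143, a smooth muscle gene, had 3872 CPM in replicate 2 and 3821 CPM in replicate 1, and Mir15a had 735 CPM in replicate 2 and 530 CPM in replicate 1.

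Neuron-associated genes had 8 of 11 detected, with a median log2 ratio of -0.19 and sums of 34845 CPM in replicate 2 and 44504 CPM in replicate 1. Of the 8, 1 was past 2-fold higher and none lower, against 7.01% and 7.24% of all 442 detected genes. Mir128-1 had 9510 CPM in replicate 2 and 18242 CPM in replicate 1, Mir137 had 8069 CPM in replicate 2 and 11808 CPM in replicate 1, and Mir128-2 had 3293 CPM in replicate 2 and 5629 CPM in replicate 1. Mir132, which neuronal activity induces, had 9221 CPM in replicate 2 and 3886 CPM in replicate 1. Genes that exist in copies, such as Mir128-1, Mir128-2, Mir16-1, Mir219a-2 and Mirlet7a-1, are uncertain, since reads that fit more than 1 copy are in no count. Against the neuron-associated genes the family's total of 2123 CPM in replicate 2 and 658 CPM in replicate 1 was small.

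Of the red blood cell genes, Mir451a and Mir144 were lower in replicate 2. All 3 genes of the list were detected, with a median log2 ratio of -2.31 and sums of 56.6 CPM in replicate 2 and 814 CPM in replicate 1. Of the 3, 2 were past 2-fold lower and none higher, against 7.24% and 7.01% of all 442 detected genes. Mir451a had 20.6 CPM in replicate 2 and 737 CPM in replicate 1, and Mir144 had 10.3 CPM in replicate 2 and 52.3 CPM in replicate 1. Mir486 had 25.7 CPM in replicate 2 and 25.4 CPM in replicate 1, and Mir451a held most of the sum in replicate 1. Mir451a, Mir144, the share of unmapped reads, Mir1298 and Mir448 thus differed between the same 2 libraries as Mir34c. So did, among others, Mir31, Mir107, Mir132, Mir16-1 and the share of reads with several places in the genome. With 2 libraries these differences cannot be told apart.

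**Figure D4:**
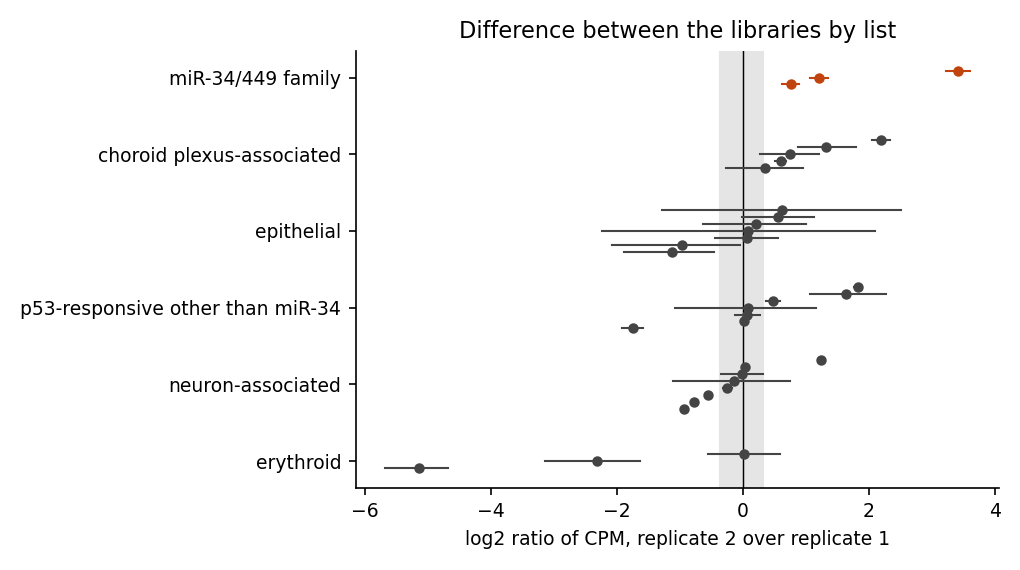
Log2 ratio of CPM, replicate 2 over replicate 1, for every detected gene of the family (orange) and of 5 other lists (dark). Lines are 95% exact binomial counting intervals, and the grey band spans the quartiles over the 442 detected genes (-0.37 to 0.32). All 3 genes of the family lie to the right of the band, from 0.76 to 3.41.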

How the data were processed

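MicroRNA sequencing of 2 cortex samples was analysed. The deposited values are raw counts of reads for each miRNA gene, made by the authors on mm10 with GENCODE M21, per the notes deposited beside the files. The sources used here do not give the aligner, the counting program or the trimming. Each file has 3 count columns (either strand, gene strand, opposite strand), identified from their values, and the gene-strand column was used. The 4 rows that name no gene were left out; ambiguous reads were 0 in that column. Alleles of CAST that differ from mm10 were not taken into account. All 2202 identifiers matched M21 symbols. CPM use the summed gene-strand column. Log2 ratios add 0.5 reads to each count. Intervals are exact (Poisson, binomial, Clopper-Pearson, 95%). No test was run. TMM library sizes came from edgeR 4.0.16 in R 4.3.3, folding energies from ViennaRNA RNAfold 2.7.2, and the rest from Python 3.11.15 (scipy 1.17.1, pandas 2.3.3, numpy 2.4.6). The ratios and intervals were tested on simulated Poisson counts only. Those hold no PCR copies and no differences between libraries beyond the ratios put in, so the check does not cover these. Alternatives changed the count column, the library total, the minimum level, the fold, the added reads and the libraries.

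The members, the lists, the rule for named genes and the alternatives were chosen with earlier results of these data known. Named were all members, every detected gene of the choroid plexus-associated list, up to 4 detected genes of highest mean CPM of each other list, and the 3 detected genes closest in level to each detected member. Undetected choroid plexus genes were added after their values were seen. The labels call the samples biological replicates, number the males they came from differently and give both the same donor identifier.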

Additional observations from a re-analysis of the deposited data

How the results depend on the processing

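Of 55 alternative values that keep both libraries, 50 moved by less than the spread between the libraries, the counting interval or 1.5 times for a count. Only log2 ratios could change sign, and none did. The spread is a wide yardstick for a mean. Mir34c passed at 1082 CPM against 543 CPM (SD 636), whereas Mir34a at 828 CPM against 423 CPM (SD 154) counted as moved. The count of 50 is therefore no measure of stability. With 2 libraries, leaving out 1 always moves a mean by less than their SD, so it says nothing about stability. The family's mean share of 0.139% became 0.0347% with all reads as the denominator and 0.275% without the 10 most abundant genes, 2 changes that rescale each library's total. Leaving out each replicate in turn gave 0.0658% to 0.212%. Members past 2-fold higher in replicate 2 numbered 4 of 5, beside 12.0% of all 542 genes. Of these, Mir34b and Mir449c entered through replicate 2 alone, so they had to be higher there. At 2 CPM in both libraries the count was 2 of 3, beside 7.01% of all 442 genes. That alternative was chosen after seeing the data and admits fewer genes. Nothing is read from these counts. Mir34c stood 59.5-fold above Mir34b by mean CPM, and 57.9-fold to 83.3-fold when each replicate was left out in turn. In the unstranded column the fold by mean CPM was 54.4. The unstranded column, and separately a 1 CPM minimum, made Mir34b a detected gene, which gave 4 members in place of 3. Taking the 10 most abundant genes out of the total must raise the means of all 6 members, since their own counts stay the same. They became 828 CPM for Mir34a, 814 CPM for Mir449a, 1082 CPM for Mir34c and 18.2 CPM for Mir34b. With 3 reads of Mir34b in replicate 1, depth limits every ratio that uses it. No paired analysis was possible because there is 1 group.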
